A study of Homo sapiens with 36 samples.

Results

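hsa-miR-139-5p is the mature miRNA cut from the 5p arm of the MIR139 hairpin, and it was 1 of 509 miRNA names listed over 7 comparisons of aneuploid human cell lines with their controls. It was found by its name and was listed in all 7 tables. It was chosen by its increases over control in these same comparisons, so its line over control values are given as a description and no test is read from them.

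The comparisons were built on 36 small RNA libraries in 12 groups of 3 biological replicates, and they ask what a gained chromosome does to miRNAs. The colorectal cancer line HCT116 is near-diploid, and RPE1 cells come from retinal pigment epithelium and were immortalised with hTERT. An asterisk stands for H2B-GFP, a histone with a fluorescent tag. Each name gives the gained chromosome before the slash and its copy number after it, and c marks a clone grown from a single cell. HCT116 5/4 was compared with HCT116. HCT116 18/3 c2, HCT116* 3/3 c11 and HCT116* 8/3 c7 were all compared with the same HCT116* libraries, although the name of HCT116 18/3 c2 gives it no H2B-GFP, so that a difference between HCT116 and HCT116* and an effect of the gain cannot be told apart there. The study's list of cell lines gives different sources for HCT116 and HCT116*, so tag and source cannot be told apart between them either. RPE1 5/3 12/3 was compared with RPE1, RPE1* 7/3 with the RPE1* libraries numbered 11 to 13, and RPE1* 21/3 with those numbered 1 to 3. The lines were made by microcell-mediated chromosome transfer, except HCT116 5/4, which came from another laboratory. By the study's methods chromosome 12 of RPE1 5/3 12/3, and chromosomes 9 and 12 in RPE1* 7/3, were gained spontaneously. Each line stands for 1 population with its own history, and no line is labelled with a gain of chromosome 11, where MIR139 lies.

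A miRNA guides an Argonaute protein to mRNAs that pair with its seed, the bases near its 5′ end, and the bound mRNAs are translated less and degraded. miR-139-5p is known as a tumour suppressor miRNA that is often low in colorectal and other carcinomas, and reported targets include the growth factor receptor IGF1R, the receptor NOTCH1 and the kinase ROCK2. Its host gene PDE2A encodes a phosphodiesterase that breaks down cAMP and cGMP. An intronic miRNA may be made from the host transcript or from a promoter of its own.

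The mature sequences and the hairpin are shown because all reads counted for the miRNA derive from them. They are from RefSeq, and the hairpin is identical to GRCh37 at chr11:72326107-72326174 on the minus strand. Capitals mark the seed (bases 2 to 8) in the mature miRNAs and the 5p arm in the hairpin.
hsa-miR-139-5p: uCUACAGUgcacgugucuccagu
hsa-miR-139-3p: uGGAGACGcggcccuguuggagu
MIR139 hairpin: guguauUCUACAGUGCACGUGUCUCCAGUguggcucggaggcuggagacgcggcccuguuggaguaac
The DNA letters that pair with this seed in a target are ACTGTAG. Of 2370 mature human miRNAs in the RefSeq table, hsa-miR-139-5p was the only 1 with these seed bases, also when bases 2 to 7 were compared, and 0 other mature miRNAs lay within 5 edits of its whole sequence. It therefore has no close relative in that table with which it would share reads.

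On GRCh37 the 5p arm lies at 72326146 to 72326168 and the 3p arm at 72326110 to 72326132 of chromosome 11. The hairpin sits on the strand of PDE2A (72287185 to 72385635, minus strand), in intron 2 of the 31-exon transcript PDE2A-201. That intron spans 72319796 to 72353297, and the hairpin is 27123 bases from the exon upstream and 6311 bases from the exon downstream. All 17 annotated PDE2A transcripts that span the hairpin have it in an intron, and 0 have an exon over it. hsa-miR-139-3p was listed in 0 of the 7 tables. Of the 509 names listed, 12 end in 3p and 333 in 5p.

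The level of hsa-miR-139-5p was moderate in HCT116 cells and lower in RPE1 cells. The mean normalised read count over the 6 libraries of a comparison was 943 for HCT116* 8/3 c7, 672 for HCT116* 3/3 c11, 536 for HCT116 18/3 c2 and 304 for HCT116 5/4 in the authors' deposited tables. The corresponding means were 63.2 for RPE1 5/3 12/3, 190 for RPE1* 7/3 and 66.3 for RPE1* 21/3. The values of the HCT116 tables and of the RPE1 tables did not overlap, and the share of miRNAs that lay as far apart is given below. Among miRNAs with a mean of at least 10, it held place 83 by mean in HCT116* 8/3 c7, its highest, and place 161 in RPE1 5/3 12/3, its lowest. Each table was normalised separately, single libraries were not analysed here and their depth is unknown from the tables, so no test between cell types was made.

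A level in the control and a level in the line were worked out from each mean and fold change, and expressed in parts per 1000000 of the summed levels (ppm) so that tables could be set side by side. In the HCT116 control of HCT116 5/4 the level was 48.4 ppm. The HCT116* control was at 85.9, 86.2 and 87.4 ppm by its 3 tables, which rest on the same 3 libraries. The RPE1 control was at 4.91 ppm, the RPE1* libraries 1 to 3 at 4.99 and the RPE1* libraries 11 to 13 at 13.4. The separate RPE1* control sets thus lay 2.69 times apart in ppm, or 3.08 times when the tables were aligned on the median ratio of 217 shared miRNAs. That distance is larger than the change from control to line in RPE1* 21/3 described below. By the median ratio, 13.8% of the 217 shared miRNAs lay at least as far apart between these control sets, and most lay closer. In the lines the level was 153 ppm in HCT116* 8/3 c7, 64.9 in HCT116* 3/3 c11, 58.8 in HCT116 5/4 and 52.2 in HCT116 18/3 c2. It was 8.26 in RPE1 5/3 12/3, 20.6 in RPE1* 7/3 and 11.7 in RPE1* 21/3, and every RPE1 line remained below every HCT116 line and control. Aligned on the median ratio, the HCT116 control lay 4.59 times above the RPE1 control, and 20.5% of shared miRNAs lay at least as far apart. By the table of HCT116* 8/3 c7, the HCT116* control lay 9.74 times above the RPE1* libraries 1 to 3 (13.6% as far apart). It lay 3.04 times above the RPE1* libraries 11 to 13 (31.7% as far apart).

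**Figure D1:**
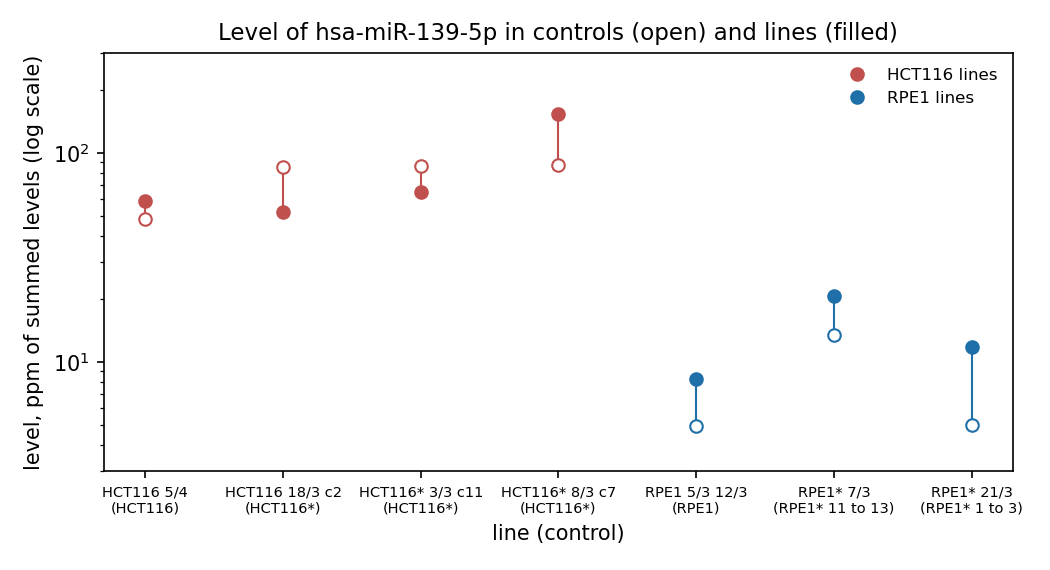
Level of hsa-miR-139-5p in ppm of summed levels (vertical log axis) in each control (open points) and line (filled points), for 4 HCT116 and 3 RPE1 lines, worked out from the authors' means and fold changes. The HCT116 points lie between 48.4 and 153 and the RPE1 points between 4.91 and 20.6, and the line is above its control in 5 of 7 pairs.

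The cell types were checked with miRNAs known to mark them. hsa-miR-200c-5p and hsa-miR-141-5p, of the epithelial miR-200 family, were listed in all 4 HCT116 tables and in 0 RPE1 tables. hsa-miR-204-5p, abundant in pigment epithelium, had a median of 518 ppm in RPE1 tables and 3.64 in HCT116 tables. The 5 listed names of the HCT116 marker list summed to 449 to 826 ppm in HCT116 tables and 191.7 to 250.7 in RPE1 tables, and the 7 of the RPE1 list to 196104 to 266903 in HCT116 and 299725 to 422850 in RPE1 tables, most of it hsa-miR-100-5p. In the HCT116 list hsa-miR-194-5p did not differ in the direction of its label (median 18.9 ppm in HCT116 and 19.6 in RPE1 tables). Members of the RPE1 list that went the other way were hsa-miR-199b-5p, which was listed in the HCT116 tables alone (median 24.6 ppm), and hsa-miR-145-5p (median 164 ppm in HCT116 and 87.9 in RPE1 tables).

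hsa-miR-139-5p was higher than in the control in 5 of 7 lines and lower in 2. The log2 fold change in the authors' deposited tables was 1.37 ± 0.33 (standard error) in RPE1 5/3 12/3, 1.12 ± 0.30 in RPE1* 21/3 and 0.59 ± 0.17 in RPE1* 7/3. HCT116 5/4 had 0.93 ± 0.20 and HCT116* 8/3 c7 had 0.82 ± 0.10. The values below 0 were -0.28 ± 0.16 in HCT116* 3/3 c11 and -0.44 ± 0.15 in HCT116 18/3 c2. All 3 RPE1 lines were above 0, while the HCT116 lines went both ways.

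As levels, the line held 258% of its control in RPE1 5/3 12/3 (95% interval of the fold 1.64 to 4.04), 217% in RPE1* 21/3 (1.44 to 3.27) and 150% in RPE1* 7/3 (1.19 to 1.91). HCT116 5/4 held 191% (1.45 to 2.52) and HCT116* 8/3 c7 177% (1.54 to 2.04). HCT116* 3/3 c11 held 82.4% (0.66 to 1.02) and HCT116 18/3 c2 73.7% (0.60 to 0.91). Ordered by log2 fold change, neighbouring lines lay closer together than their combined standard error except at 2 steps. These were the step from HCT116* 8/3 c7 to RPE1* 7/3, a difference of 0.24 with a combined standard error of 0.20, and the step from RPE1* 7/3 to HCT116* 3/3 c11, a difference of 0.87 with a combined standard error of 0.24. The standard errors were 1.95 to 3.49 times what counting alone would give at these means, so the spread beyond counting made up most of the error in every table.

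**Figure D2:**
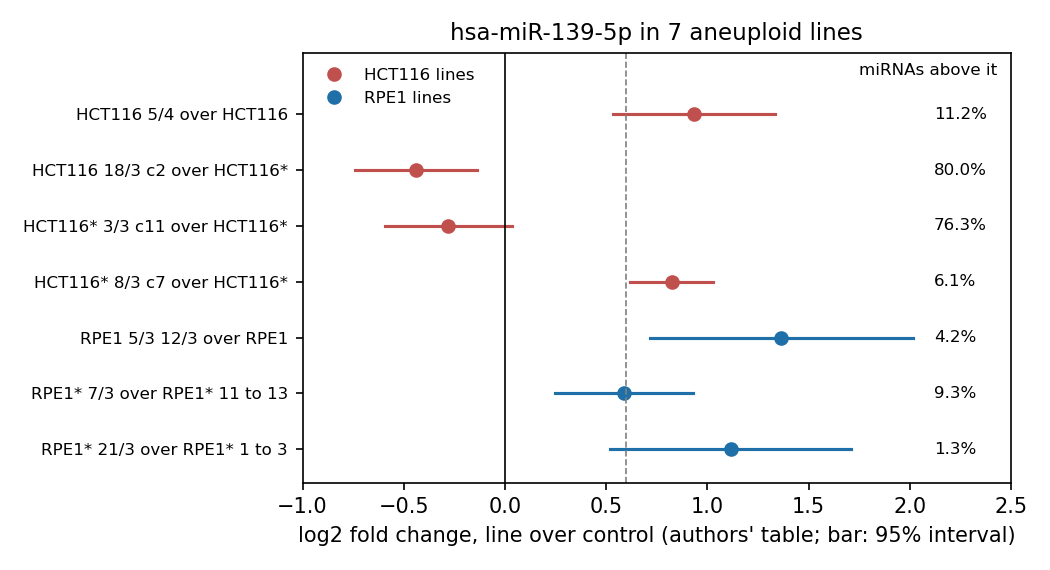
Log2 fold change of hsa-miR-139-5p, line over control (horizontal axis), with its 95% interval (bars) for each line, and at the right the percent of tested miRNAs with a larger fold change. The dashed line marks the fold change limit of 0.6. The points of 5 lines lie between 0.59 and 1.37, and HCT116 18/3 c2 (-0.44) and HCT116* 3/3 c11 (-0.28) lie below 0.

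The size of 3 of these values depended on how line and control are scaled. In HCT116 5/4 the levels of all miRNAs summed to a total 0.65 higher on the log2 scale in the line than in the control, and in RPE1 5/3 12/3 the total was 0.62 higher. Relative to that total, hsa-miR-139-5p changed by 0.28 in HCT116 5/4 and 0.75 in RPE1 5/3 12/3. A large part of the total was hsa-miR-100-5p, at 223644 ppm of the summed means in HCT116 5/4 and 375539 in RPE1 5/3 12/3. Its own changes there were 0.76 ± 0.69 and 0.83 ± 0.64, with wide errors. How much of the shift of each total came from hsa-miR-100-5p was not tested. HCT116 18/3 c2, with a total 0.28 higher, moved to -0.72. In the other lines the total shifted by -0.12 to 0.13. No line changed direction.

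By the limits used here (mean of at least 10, DESeq2 adjusted p under 0.05 as listed, log2 fold change of at least 0.6) the miRNA was called higher in 4 lines. Scaled to summed levels, the calls of HCT116 5/4 and RPE1 5/3 12/3 were lost and RPE1* 7/3 was called, which left 3. With a t distribution of 4 degrees of freedom, or 2 where pairing was a term, 1 call was left, HCT116* 8/3 c7. The calls lost were all in lines with pairing, where so few degrees of freedom demand a much larger score, so this setting cannot decide them. When the fold change was tested against the limit of 0.6, 0 calls were left. The listed values are among those that led to its choice, so the share of all tested miRNAs called higher is printed only as the background. In those 4 lines it was 3.9% in RPE1* 21/3, 9.56% in HCT116* 8/3 c7, 16.9% in RPE1 5/3 12/3 and 18.5% in HCT116 5/4. In the lines without a call it was 7.29% in RPE1* 7/3, 8.93% in HCT116 18/3 c2 and 6.09% in HCT116* 3/3 c11. RPE1* 7/3 fell just short of the fold change limit. The next miRNAs around it there were hsa-miR-221-5p (0.63 ± 0.12), just inside the limit, and hsa-miR-450a-5p (0.59 ± 0.14), just outside.

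Its place among increases was first set by the log2 fold change. It ranked 4 of 231 tested miRNAs in RPE1* 21/3, 11 of 237 in RPE1 5/3 12/3, 19 of 293 in HCT116* 8/3 c7, 24 of 247 in RPE1* 7/3 and 29 of 249 in HCT116 5/4. In the lines where it stood below 0 it ranked, counted from the largest decrease, 66 of 279 in HCT116* 3/3 c11 and 56 of 280 in HCT116 18/3 c2, well inside the range of the decreases. HCT116 5/4 gave the third largest percentage of control but the weakest rank of the 5 increases, because 11.2% of tested miRNAs rose more in that line, whereas 1.3% did in RPE1* 21/3. By the score, which divides the fold change by its standard error, the rank rose to 8 in HCT116* 8/3 c7 and was 6 in RPE1* 21/3, 16 in RPE1 5/3 12/3, 21 in RPE1* 7/3 and 28 in HCT116 5/4.

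**Figure D3:**
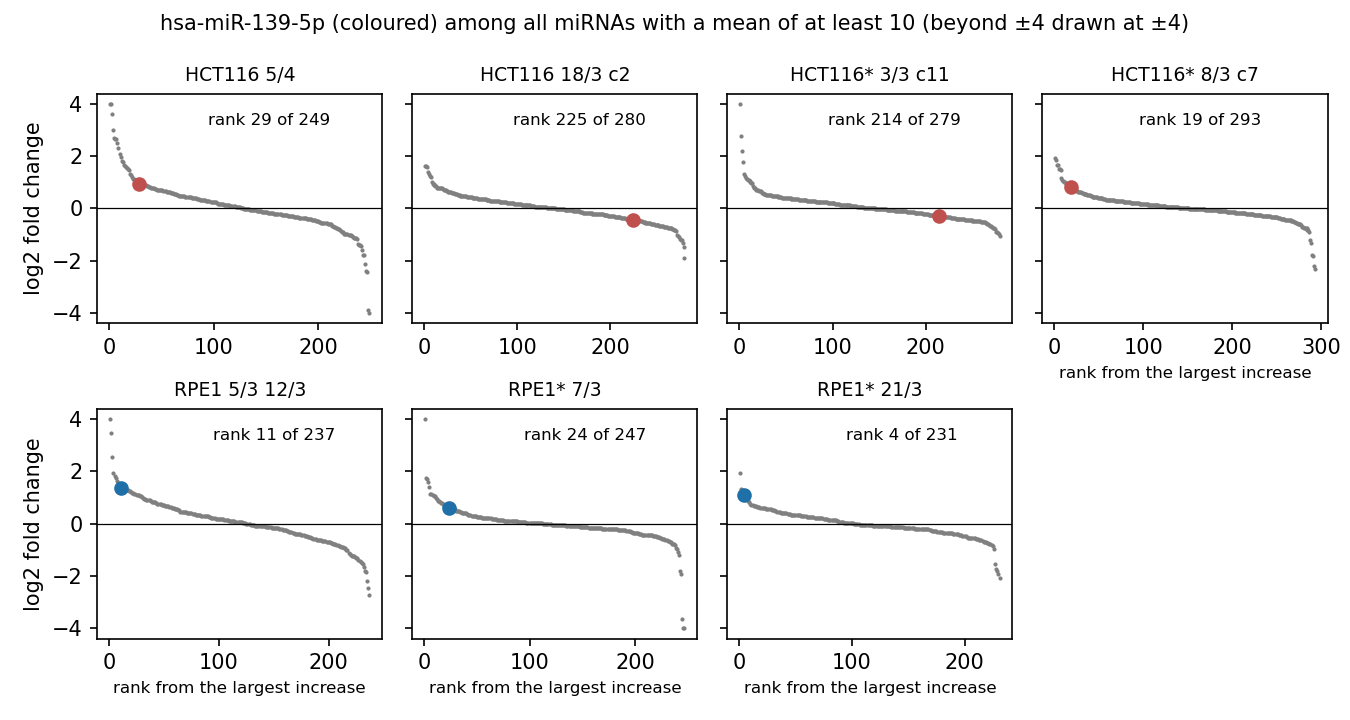
Log2 fold change of every miRNA with a mean of at least 10 (grey points, vertical axis) against its rank from the largest increase (horizontal axis), 1 panel for each line, with hsa-miR-139-5p as the coloured point. It lies near the left end in 5 panels (ranks 4 to 29) and to the right of the middle in HCT116 18/3 c2 and HCT116* 3/3 c11 (places 56 and 66 from the largest decrease).

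The neighbours in rank are given with their log2 fold changes and standard errors, whether or not they were called. In RPE1* 21/3 they were hsa-miR-10a-5p above (1.30 ± 0.19), a miRNA of the HOXB gene cluster, and hsa-miR-4485 below (0.93 ± 0.37). In RPE1 5/3 12/3 they were hsa-miR-365a-5p (1.41 ± 0.49) and hsa-miR-4532 (1.36 ± 0.49). hsa-miR-597 (0.86 ± 0.32) and hsa-miR-628-5p (0.82 ± 0.29) enclosed it in HCT116* 8/3 c7, and hsa-miR-24-2-5p (0.95 ± 0.16) and hsa-miR-3074-5p (0.93 ± 0.45) in HCT116 5/4. Around its decreases stood hsa-miR-548ab (-0.43 ± 0.30) and hsa-miR-532-5p (-0.44 ± 0.09) in HCT116 18/3 c2 and hsa-miR-378g (-0.28 ± 0.21) and hsa-miR-3150a-5p (-0.28 ± 0.17) in HCT116* 3/3 c11. Several of these neighbours are scarce. In HCT116* 8/3 c7, hsa-miR-597 and hsa-miR-628-5p had means of 14.8 and 25.01 against 943 for hsa-miR-139-5p, and their standard errors of 0.32 and 0.29 compare with 0.10.

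The RPE1 lines, which share no control libraries, were looked at together after their values were seen. Of the miRNAs tested in all 3 RPE1 tables, 19 had a log2 fold change above 0 in each. The smallest of the 3 values of hsa-miR-139-5p, 0.59, was the highest smallest value among these miRNAs. This is a description of the pattern for which it was chosen.

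Besides hsa-miR-139-5p, 10 of the 509 miRNA names listed were called higher in at least 3 lines. hsa-miR-99a-5p of chromosome 21 was called in 4, and 3 of its lines (HCT116 5/4, RPE1* 21/3 and RPE1 5/3 12/3) had a call for hsa-miR-139-5p too. Another, hsa-miR-34c-5p, a p53 target that lies on chromosome 11 as well, was called higher in 4 lines of which 1, HCT116 5/4, was shared, and it fell in HCT116* 8/3 c7 (-1.21 ± 0.25), where hsa-miR-139-5p rose. hsa-miR-10a-5p was called in 3 lines and all 3 were shared. In HCT116* 8/3 c7 hsa-miR-10a-5p stood at 0.03 ± 0.08, against 0.82 for hsa-miR-139-5p. The others, each in 3 lines, were hsa-miR-22-5p, hsa-miR-125b-5p, hsa-miR-222-5p, hsa-miR-302a-5p, hsa-miR-30a-5p, hsa-miR-4521 and hsa-miR-584-5p. All 10 were called higher in HCT116 5/4, the line with the largest background of increases.

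The pattern over the 7 lines was set against that of 172 other miRNAs with a mean of at least 10 in every table. Pearson's r of the log2 fold changes was highest for hsa-miR-193a-5p (0.85), hsa-miR-192-5p (0.80), hsa-miR-942 (0.71), hsa-miR-548k (0.71) and hsa-miR-378i (0.71), and lowest for hsa-miR-30c-5p (-0.84) and hsa-miR-1277-5p (-0.85). These are descriptions over 7 points, of which 3 share the HCT116* libraries, and the median r over the 172 was 0.01. Of the 172, 23 had an r above 0.5 and 22 an r below -0.5.

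The most similar and most opposite of these miRNAs are shown to let their seeds be compared with that of hsa-miR-139-5p, printed from RefSeq with bases 2 to 8 in capitals. No seed among them matches it.
hsa-miR-193a-5p: uGGGUCUUugcgggcgagauga
hsa-miR-192-5p: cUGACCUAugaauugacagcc
hsa-miR-30c-5p: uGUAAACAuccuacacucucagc
hsa-miR-1277-5p: aAAUAUAUauauauauguacguau

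hsa-miR-193a-5p followed a similar order of lines (Spearman's rho 0.93) at a smaller scale, with 0.63 ± 0.22 in RPE1* 21/3 and 0.72 ± 0.27 in RPE1 5/3 12/3. It did not share the increase of HCT116* 8/3 c7, where it stood at -0.11 ± 0.19. hsa-miR-192-5p, a p53-responsive miRNA that is abundant in gut epithelium, exceeded hsa-miR-139-5p in HCT116 5/4 (1.96 ± 0.16) and lay further below 0 in HCT116 18/3 c2 (-1.21 ± 0.10) and HCT116* 3/3 c11 (-0.57 ± 0.14). In the other lines it was the lower of both, at 1.29 ± 0.24 in RPE1 5/3 12/3, 0.25 ± 0.15 in RPE1* 7/3, 0.20 ± 0.20 in RPE1* 21/3 and 0.05 ± 0.08 in HCT116* 8/3 c7. The changes of hsa-miR-942 lay between -0.17 and 0.12 and those of hsa-miR-548k between -0.33 and 0.03, so these r values rest on changes of the size of their errors. The same holds for hsa-miR-30c-5p, which ranged from -0.15 to 0.22. hsa-miR-378i rose in RPE1 5/3 12/3 (1.16 ± 0.30) and was at -0.60 ± 0.09 in HCT116 18/3 c2. hsa-miR-1277-5p was called higher in HCT116 18/3 c2 (0.68 ± 0.19), the line with the lowest value of hsa-miR-139-5p.

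**Figure D4:**
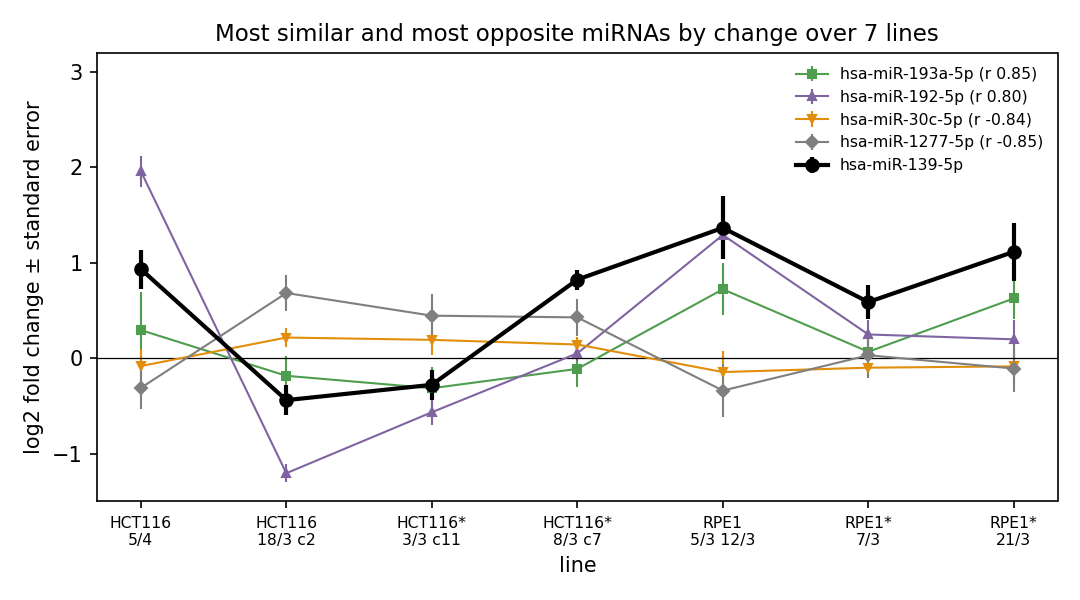
Log2 fold change with its standard error (vertical axis) in each line (horizontal axis) for hsa-miR-139-5p (black) and the miRNAs whose changes were most similar (hsa-miR-193a-5p and hsa-miR-192-5p) or most opposite (hsa-miR-30c-5p and hsa-miR-1277-5p). In HCT116* 8/3 c7 hsa-miR-139-5p stands at 0.82, above the other 4, which lie between -0.11 and 0.43.

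MIR139 was next compared with the other miRNAs of chromosome 11. Of 25 listed miRNAs with all loci on this chromosome, 17 reached a mean of 10 in at least 1 table, which gave 69 values over the 7 tables. Of these values 14 were called higher, or 20.3%, and 3 lower, or 4.35%, against 10.1% higher and 7.27% lower over all 1816 values tested. Values of 1 miRNA in several tables are not independent, and hsa-miR-34c-5p alone gave 4 of the 14. The median log2 fold change of the chromosome 11 miRNAs was 0.57 in RPE1 5/3 12/3 (all tested miRNAs 0.07), 0.41 in HCT116 18/3 c2 (all -0.0016), 0.32 in HCT116 5/4 (all 0.04) and 0.20 in RPE1* 21/3 (all -0.06). It was -0.28 in HCT116* 3/3 c11 (all 0.01), -0.16 in RPE1* 7/3 (all -0.04) and -0.04 in HCT116* 8/3 c7 (all 0.01). hsa-miR-139-5p therefore moved away from the median of its chromosome in HCT116 18/3 c2, where 11 of 12 stood above it, in RPE1* 7/3 and in HCT116* 8/3 c7. In RPE1* 21/3 and also in RPE1 5/3 12/3, 0 of the 9 tested stood above it.

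The loci nearest to MIR139 gave few tested values. hsa-miR-3165, 0.543 Mb away, and hsa-miR-3664-5p, 1.61 Mb away, stayed below a mean of 10 in each table that listed them. hsa-miR-548k, 2.20 Mb away, was tested in all 7 lines and called in 0. hsa-miR-3164, 3.48 Mb away, was tested in the 4 HCT116 lines and called in 0, with -1.03 ± 0.57 in HCT116 5/4. hsa-miR-708-5p, 6.79 Mb away on the other side, was tested in the RPE1 tables alone and was called higher in RPE1* 7/3 (0.70 ± 0.13), with 0.57 ± 0.26 in RPE1 5/3 12/3 and 0.24 ± 0.20 in RPE1* 21/3. The chromosome 11 miRNAs called in at least 3 lines were hsa-miR-34c-5p (4 higher, 1 lower), hsa-miR-192-5p (2 higher, 1 lower) and hsa-miR-1260b (2 higher, 1 lower), and none of them moved in 1 direction throughout.

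miR-139 is counted among the miRNAs that are often low in colorectal tumours, and a list of 16 others of that kind was followed beside it. The list was matched by number, and the arm in the tables, in each case 5p, may not be the arm that is low in tumours. Of the 16, 8 were listed and gave 46 tested values, of which 9 were called higher (19.6%) and 6 lower (13.04%), against the backgrounds of 10.1% and 7.27%. Values of 1 miRNA in several tables are not independent, and hsa-miR-34c-5p gave 4 of the 9 and hsa-miR-30a-5p 3. The calls of hsa-miR-34c-5p are counted among those of chromosome 11 too. In HCT116* 8/3 c7, where hsa-miR-139-5p rose, 0 of 7 were called higher and 3 lower. These were hsa-miR-30a-5p (-2.32 ± 0.10), hsa-miR-34c-5p (-1.21 ± 0.25) and hsa-miR-145-5p (-0.60 ± 0.12), a miRNA of smooth muscle and fibroblasts. In HCT116* 3/3 c11, where hsa-miR-139-5p stood below 0, hsa-miR-30a-5p (4.46 ± 0.23) and hsa-miR-34c-5p (1.04 ± 0.22) were called higher. In HCT116 5/4, 3 of 6 were called higher and 0 lower. hsa-miR-145-5p fell in RPE1* 7/3 (-3.65 ± 0.29) and RPE1* 21/3 (-1.53 ± 0.22), and hsa-miR-126-5p fell in RPE1 5/3 12/3 (-2.71 ± 0.55) and rose in RPE1* 7/3 (1.06 ± 0.34). In RPE1* 21/3 and RPE1 5/3 12/3, 0 members were called higher.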

How the data were processed

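Small RNA libraries of 36 cultures were made by the authors, who mapped reads to hg19 (GRCh37), counted mature miRNAs with mirdeep2 and compared the 3 libraries of each line with 3 of its control in DESeq2. In the models for HCT116 5/4, RPE1* 21/3 and RPE1 5/3 12/3 a pairing of replicates was also a term. The deposited mean is a signal, the average over 6 libraries of counts scaled by size factors. The deposited fold change is a log2 value that comes with a standard error, the deposited score is the quotient of both, and the deposited p-value and adjusted p-value are those of the authors' DESeq2 run. The values were checked: the score is this quotient, the p-value is two-sided normal and the adjustment runs over the miRNAs listed. In RPE1* 7/3 the listed standard error was 0.29 for hsa-miR-3664-5p at a mean of 1.38 and 0.40 for hsa-miR-3164 at a mean of 7.90. Counting error falls as the mean rises, so listed fold changes and errors of scarce miRNAs may be drawn towards 0. Fold changes, intervals, levels and ranks rest on the listed values, and the size of this was not tested. The tables hold no values of single libraries, so no test was refitted and the comparison columns were used as listed. Depth per library is unknown.

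Tested miRNAs had a mean of at least 10, and calls needed an adjusted p under 0.05 with a log2 fold change of 0.6 or more in either direction. Levels in control and line were worked out so that their average is the listed mean and their ratio the listed fold. The 95% intervals are normal, from the listed standard errors. miRNA loci came from RefSeq (sequences and chromosomes) and GENCODE 44 on GRCh37 (positions), which placed 495 of 509 names. Ranks, adjusted p-values and similarity were tested on simulated data. Tools were scipy 1.17.1, pandas 2.3.3, numpy 2.4.6 and matplotlib 3.10.9 on Python 3.11.15.

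The miRNA, the lists and the limits were chosen with earlier results of these data known. Named miRNAs are hsa-miR-139-5p and its 3p arm, the 5 most similar and 2 most opposite in pattern, its neighbours in rank, miRNAs called higher in at least 3 lines, chromosome 11 miRNAs called in at least 3 lines, and members of the colorectal list called in at least 2. Those nearest to MIR139 and the cell type markers were named beside this rule, the former after their values were seen. Alternatives covered scaling, the limits on mean and fold change, the distribution of the score and the measure of similarity.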

Additional observations from a re-analysis of the deposited data

How the results depend on the processing

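No paired analysis was possible because the tables hold no values of single libraries, and for the same reason leaving out each replicate was not run. Subtracting each table's median kept all 7 fold changes of hsa-miR-139-5p within their standard error, and all 7 directions held under both scalings. Scaled to summed levels, HCT116 5/4 moved from 0.93 to 0.28, RPE1 5/3 12/3 from 1.37 to 0.75 and HCT116 18/3 c2 from -0.44 to -0.72. The number of lines in which it was called higher, 4 as listed, was 5 without a fold change limit or after subtracting the median, 3 scaled to summed levels (HCT116* 8/3 c7, RPE1* 7/3 and RPE1* 21/3), 2 with p-values adjusted over means of at least 100 (its means in RPE1* 21/3 and RPE1 5/3 12/3 lie under that limit), 1 with a t distribution of 4 degrees of freedom, or 2 where pairing was a term (HCT116* 8/3 c7), and 0 when tested against the limit of 0.6. Of the 5 most similar miRNAs, 3 were kept with Spearman's rho, 2 with the score, 3 at means of at least 100 and 1 to 4 when a line was left out, 1 without RPE1 5/3 12/3, so that list is not stable. The chromosome 11 share called higher was 21.6% at means of at least 100, against 20.3%.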

Other observations

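Levels in ppm of the summed levels, set across tables that were normalised separately, put the line HCT116 18/3 c2 (52.2) next to the HCT116 control of another table (48.4), 1.08 times apart, while its own control HCT116* stood at 85.9. When aligned on the median ratio of 231 shared miRNAs the 2 were 1.64 times apart. The HCT116* control lay 1.77 times above the HCT116 control in ppm by the table of HCT116 18/3 c2. Aligned on the median ratio it lay 2.14 times above, and 32.9% of shared miRNAs lay at least as far apart between these controls. The line RPE1* 21/3, at 11.7 ppm, lay below the RPE1* 11 to 13 control at 13.4, and above its own control at 4.99. These values have no test, and their part in the differences between lines was not tested.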
